A study of Mus musculus with 6 samples.

Results

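Genes of the TGF-beta pathway and its SMAD repressors were followed in SLAM-LSK cells, a bone marrow fraction sorted for surface markers of haematopoietic stem cells. The 10 genes were chosen by name: Tgfb1, Tgfbr1, Tgfbr2, Smad2, Smad3, Smad4, Smad7, Ski, Skil and Bambi. All 10 were among the 18465 genes of the deposited table, and all 10 had a mean of at least 1 TPM and entered the test with 16655 genes in all. TPM corrects reads for the length of a gene and for the size of the library, so levels of different genes can be set side by side. The libraries came from C57BL/6 mice of 2 genotypes, with 3 libraries from wild-type (WT) mice and 3 from mice heterozygous for the R751W allele of Mecom, the group labelled MecomWT:R751W. The genotype label gives 1 altered and 1 normal allele, and no treatment is labelled for either group. The labels call the libraries biological replicates without saying that each came from a separate mouse, and age and sex are not stated. The p-values therefore set the difference between genotypes against the spread among these libraries, which may not be the spread among mice.

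TGF-beta is a secreted dimer that binds the type II receptor TGFBR2, which then activates the type I receptor TGFBR1. The active type I receptor phosphorylates SMAD2 and SMAD3, which join SMAD4 and act on genes in the nucleus. SKI and its paralog SnoN, encoded by Skil, bind these SMADs and recruit co-repressors, SMAD7 blocks the receptor, and BAMBI is a receptor-like protein without a kinase. In bone marrow, TGF-beta is known as a signal that keeps stem cells quiescent. MECOM, whose shorter form is called EVI1, binds SMAD3 and represses its activity, which is why these genes were followed across the Mecom genotypes.

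With 1 scaling factor per library removed, the 6 TPM values of every gene were in whole-number ratios, which implies 10427533 to 12378149 reads per library. The members had 451 (Bambi) to 10697 (Tgfb1) implied reads over the 6 libraries. Protein-coding rows took 25.9% to 30.1% of TPM, the rest going to 5913 rows of other gene types, and in both genotypes the share was lowest in replicate 2. Mecom itself was at 38.2 ± 4.17 TPM in WT against 45 ± 5.53 TPM in MecomWT:R751W (SD over 3 libraries each), a log2 fold change of 0.23 (exact two-sided permutation p = 0.2, where 0.1 is the smallest p that 3 libraries against 3 allow). The transcripts of the 2 alleles are counted together in this value. Of the markers of SLAM-LSK cells, 8 of 8 were read, with a summed level of 384 to 443 TPM in WT against 331 to 402 TPM in MecomWT:R751W.

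No member passed limma's test at an adjusted p of 0.05, and neither did any other gene, so percent called was 0.0 over the 16655 genes tested. At an unadjusted p under 0.05 limma gave 2 of the 10 members, Skil and Bambi, both lower in MecomWT:R751W, where 3.23% of all genes tested were lower and 2.74% higher by that measure. Of the 10 members, 9 had a log2 fold change below 0, against 51.0% of all genes tested. The median of the members was -0.11 and that of all genes tested -0.0037. Leaving out MecomWT:R751W replicate 2 put the members' median at -0.053 with 7 below 0 (all genes 0.053), and leaving out WT replicate 2 put it at -0.19 with 9 below 0 (all genes -0.065). It was -0.069 with 8 below 0 when WT replicate 1 was left out. A single member, Bambi, lay lower in all 3 MecomWT:R751W libraries than in any WT library, as did 4.7% of all genes tested. No member lay wholly above WT, where 4.5% of all genes tested did.

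**Figure D1:**
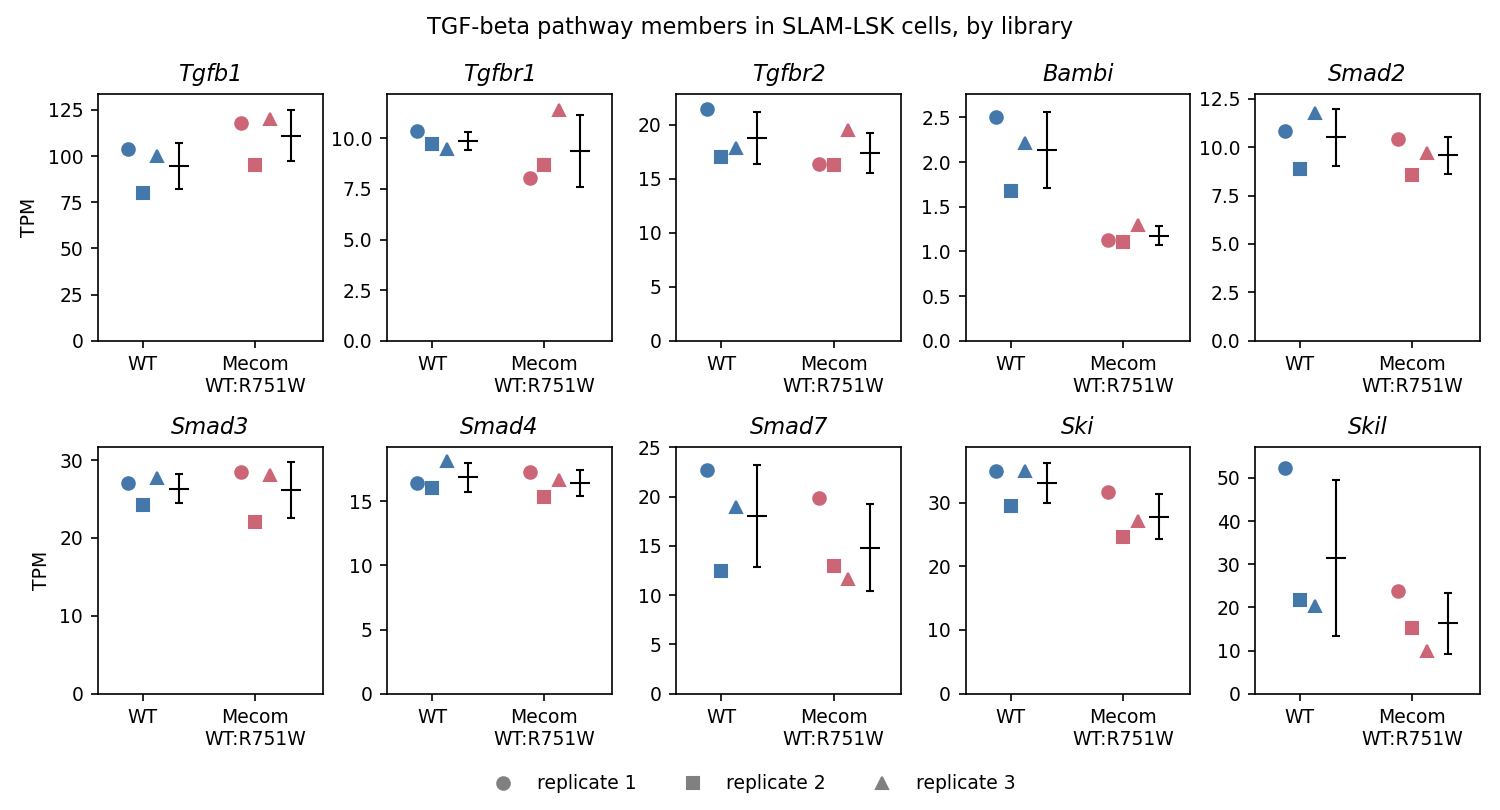
Level of each of the 10 genes in TPM (vertical axes, from 0) in WT and MecomWT:R751W libraries, with the replicate number as the symbol and the mean ± SD (n = 3) beside each group. Bambi is the member whose groups do not overlap, and the WT replicate 1 value of 52.3 TPM stands apart for Skil.

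Ordered by the mean over the 6 libraries, Tgfb1 stood far above the other members at 103 TPM, with a range of 80.2 to 120.3 TPM. Ski followed at 30.4 TPM, Smad3 at 26.3 TPM and Skil at 23.9 TPM. The range of Skil, 9.89 to 52.3 TPM, took in the values of Ski and Smad3 and those of the next members, so these neighbours cannot be ordered. Tgfbr2 at 18.1 TPM, Smad4 at 16.6 TPM and Smad7 at 16.4 TPM overlapped one another. Smad2 at 10.04 TPM and Tgfbr1 at 9.62 TPM also overlapped, and both stayed below every value of Tgfbr2 and Smad4. Bambi was lowest, at 1.65 TPM.

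Upstream sequence was read from a RefSeq table of the build GRCm38.p6, which matched 5 of the 10 members, Tgfb1, Tgfbr1, Tgfbr2, Smad3 and Ski. The 250 bases before the start of transcription are given 5′ to 3′ for the ligand gene, for Tgfbr2, whose window holds a SMAD site, and for the co-repressor gene Ski. Capitals mark CAGAC, the short SMAD site, on either strand.
Tgfb1: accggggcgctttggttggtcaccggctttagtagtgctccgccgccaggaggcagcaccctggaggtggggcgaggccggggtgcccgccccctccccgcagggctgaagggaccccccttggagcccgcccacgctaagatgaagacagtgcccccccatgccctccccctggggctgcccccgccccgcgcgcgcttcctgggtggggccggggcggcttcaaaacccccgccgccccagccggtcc
Tgfbr2: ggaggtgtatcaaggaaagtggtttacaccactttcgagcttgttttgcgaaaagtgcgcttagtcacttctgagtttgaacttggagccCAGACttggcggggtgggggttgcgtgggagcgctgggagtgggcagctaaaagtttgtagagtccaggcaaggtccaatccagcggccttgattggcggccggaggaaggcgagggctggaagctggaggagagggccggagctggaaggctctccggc
Ski: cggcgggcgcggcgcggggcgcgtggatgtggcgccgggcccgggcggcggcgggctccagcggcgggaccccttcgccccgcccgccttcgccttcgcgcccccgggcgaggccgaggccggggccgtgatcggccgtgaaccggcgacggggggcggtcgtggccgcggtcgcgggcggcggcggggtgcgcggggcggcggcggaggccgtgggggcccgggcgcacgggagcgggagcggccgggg
The windows are chr7:25686752-25687001 on the plus strand, chr9:116175364-116175613 on the minus strand and chr4:155222536-155222785 on the minus strand. CAGAC occurred in 2 of the 6 windows of these 5 genes, that of Tgfbr2 and 1 of the 2 of Tgfbr1, while 42.2% of all 32851 windows of this length hold it. The palindromic SMAD element GTCTAGAC, GACAAGATA, the core of the site bound by the first zinc finger domain of EVI1, and GATGAG, that of the second, were searched on both strands and had 0 matches in the 6 windows. They occur in 0.167%, 0.107% and 10.1% of all windows. A motif match or its lack describes these letters only.

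Tgfb1, the ligand, was at 104, 80.2 and 100.3 TPM in the WT libraries and at 118, 95.1 and 120.3 TPM in the MecomWT:R751W libraries, given here and below in the order of replicates 1 to 3. Within each genotype replicate 2 was the lowest library, and the groups overlapped because MecomWT:R751W replicate 2 lay below 2 of the WT values. The log2 fold change was 0.23 (SE 0.14, adjusted p = 0.969, limma), with a 95% interval of -0.08 to 0.54. It ranged from 0.12 to 0.34 when 1 library was left out. Platelets are a known store of this ligand. The 6 of 8 megakaryocyte and platelet markers that were read summed to 136 to 165 TPM in WT against 127.5 to 184 TPM in MecomWT:R751W, ranges that overlapped, and the part of such transcripts in the level of Tgfb1 was not tested.

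Tgfbr1 and Tgfbr2, the type I and type II receptors, had overlapping groups. Tgfbr1 was at 10.3, 9.74 and 9.47 TPM in WT and at 8.04, 8.66 and 11.4 TPM in MecomWT:R751W. The lowest and the highest value both came from MecomWT:R751W, and the log2 fold change was -0.08 with an interval of -0.44 to 0.28. Tgfbr2 was at 21.5, 17 and 17.9 TPM in WT and at 16.4, 16.3 and 19.5 TPM in MecomWT:R751W. Its log2 fold change was -0.10, with an interval of -0.42 to 0.22. Both intervals reach beyond 0.2 in either direction, so equal levels are not shown.

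Bambi, the pseudoreceptor that damps signalling at the membrane, was the member with the clearest separation. It was at 2.51, 1.67 and 2.21 TPM in WT and at 1.12, 1.10 and 1.30 TPM in MecomWT:R751W. The MecomWT:R751W libraries lay close together and all under the lowest WT value. The means differed by -44.9% of the WT mean, a log2 fold change of -0.52 (SE 0.20, adjusted p = 0.714, limma), and the value stayed between -0.43 and -0.63 when 1 library was left out. On this low level the log2(TPM + 1) scale understates the change, and with limma-voom on the implied reads the value was -0.83 (adjusted p = 0.174). The gene rests on few reads, 107, 78 and 108 in WT and 46, 50 and 62 in MecomWT:R751W.

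The SMADs that carry the signal had log2 fold changes between -0.12 and -0.01, with groups that overlapped. Smad3, the SMAD that MECOM binds, was at 27.1, 24.2 and 27.7 TPM in WT and at 28.4, 22 and 28 TPM in MecomWT:R751W. The 2 groups overlapped and the log2 fold change was -0.01, with an interval of -0.33 to 0.29. Its sign turned in several of the settings that left out a library. Smad4, the partner that all of these SMADs share, was at 16.4, 16 and 18.2 TPM in WT and at 17.3, 15.3 and 16.6 TPM in MecomWT:R751W, a log2 fold change of -0.04 (interval -0.33 to 0.26). Smad2, the other SMAD activated by the TGF-beta receptor, was at 10.8, 8.90 and 11.8 TPM in WT and at 10.4, 8.57 and 9.72 TPM in MecomWT:R751W, a log2 fold change of -0.12 (interval -0.47 to 0.23).

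Smad7, the inhibitory SMAD that is itself switched on by the pathway, varied among the libraries of each genotype. It was at 22.7, 12.4 and 18.9 TPM in WT and at 19.8, 13 and 11.6 TPM in MecomWT:R751W. WT replicate 2 lay between the 2 lower MecomWT:R751W libraries, so the groups overlapped. The log2 fold change was -0.26 (SE 0.23, adjusted p = 1.0, limma). Leaving out WT replicate 1 gave -0.08, leaving out MecomWT:R751W replicate 3 gave -0.12 and leaving out WT replicate 2 gave -0.49.

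Ski and Skil, the paralogous SMAD co-repressors, both had lower means in MecomWT:R751W. Ski was at 34.9, 29.4 and 35 TPM in WT and at 31.6, 24.6 and 27.0 TPM in MecomWT:R751W. One MecomWT:R751W library, replicate 1, lay above the lowest WT library, and the other two lay below all of WT. The log2 fold change was -0.25 (SE 0.14, adjusted p = 0.941, limma), with an interval of -0.55 to 0.06.

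Skil had the largest difference of the 10 members and the widest spread. It was at 52.3, 21.7 and 20.4 TPM in WT and at 23.8, 15.3 and 9.89 TPM in MecomWT:R751W. WT replicate 1 held more than any other library, and MecomWT:R751W replicate 1 lay above WT replicates 2 and 3, so the groups overlapped. The WT mean was 1.93 times the MecomWT:R751W mean, and the log2 fold change was -0.85 (SE 0.33, adjusted p = 0.735, limma). Leaving out WT replicate 1 gave -0.43 and leaving out MecomWT:R751W replicate 3 gave -0.56.

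Skil was called in 1 of the fits. Over protein-coding rows alone, with TPM as deposited, limma called 132 of 11394 genes, 1.16% in either direction and 0.807% lower, and Skil was the 1 member among them (adjusted p = 0.00175). Its log2 fold change was the same there, with an SE of 0.18 in place of 0.33. The prior degrees of freedom, the weight that limma gives to the spread of other genes of the same level, were 102 there and 8.72 over all rows. The call was lost without WT replicate 1 (adjusted p = 0.474), and likewise for WT replicate 2 (0.0636) and for replicates 2 (0.235) and 3 (0.109) of MecomWT:R751W. The call held when WT replicate 3 was left out (8.62e-07) and when MecomWT:R751W replicate 1 was (7.96e-08). Skil did not pass after rescaling over the protein-coding rows (adjusted p = 0.373, with 0.137% of genes called) or with limma-voom on the implied reads (adjusted p = 0.227, with 0.3% called).

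**Figure D2:**
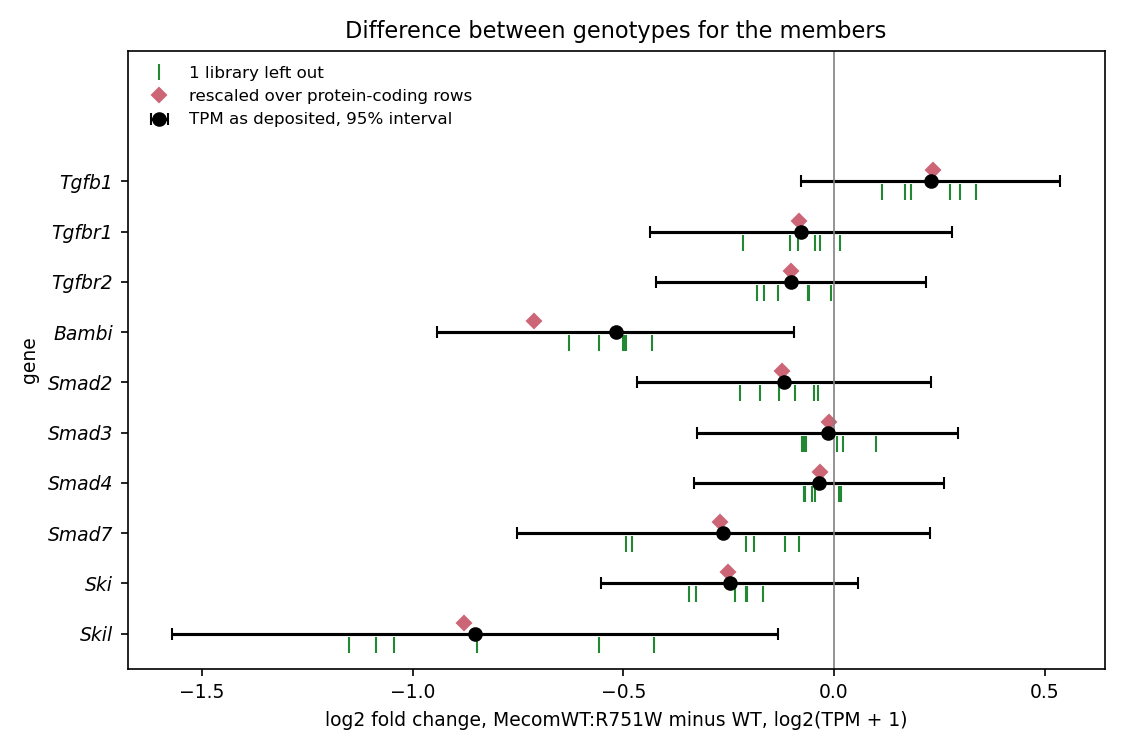
Log2 fold change of each member, MecomWT:R751W minus WT, on the log2(TPM + 1) scale, as circles with the 95% interval of limma's fit to 6 libraries. Ticks give the values with 1 library left out and diamonds the values after rescaling over protein-coding rows, where Tgfb1 lies above 0 in every setting drawn, and Skil, Ski and Bambi below it.

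The share of TPM in protein-coding rows was lowest in replicate 2 of both genotypes, as were Tgfb1 and Smad3, so the values were also read after each library was rescaled to the same total of 1000000 over those rows. On that scale Tgfb1 was at 344, 310 and 347 in WT and at 397, 366 and 416 in MecomWT:R751W. All 3 MecomWT:R751W libraries then lay above all 3 WT libraries, as did 7.53% of the 12394 genes tested on that scale. The log2 fold change of 0.23 had an SE of 0.08 there, and the adjusted p was 0.274 by limma. Ski was at 116, 114 and 121 in WT and at 106, 94.6 and 93.6 in MecomWT:R751W, and Bambi at 8.34, 6.46 and 7.66 against 3.77, 4.24 and 4.5. Both lay wholly below WT, as did 8.63% of genes, with adjusted p-values of 0.262 for Ski and 0.219 for Bambi by limma. The groups of the other 7 members still overlapped after rescaling.

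Over libraries, the profile of Skil was most like that of Socs3, a feedback inhibitor of cytokine receptors, among 11393 other protein-coding genes tested (Pearson r = 0.9985 over 6 libraries, on log2(TPM + 1)). Next came Qtrt1, a tRNA-modifying enzyme subunit (0.991), Cdkn1a, which encodes the cell cycle inhibitor p21 (0.990), Cpeb2, an RNA-binding regulator of translation (0.989), and Plekho2 (0.988). Junb, an AP-1 subunit of the early response to stimulation, was added by name and stood at r = 0.921, rank 139 among the genes compared. Socs3 was at 9.02, 4.25 and 3.84 TPM in WT and at 4.69, 2.85 and 1.78 TPM in MecomWT:R751W, so WT replicate 1 was the highest and MecomWT:R751W replicate 3 the lowest library, as for Skil. Junb was at 134, 93.0 and 58.6 TPM in WT and at 97.5, 56.3 and 45.4 TPM in MecomWT:R751W. The part of a stimulation response in the level of Skil was not tested.

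Among the genes whose profiles were most like that of Smad7 were the kinase gene Src (r = 0.996), the coactivator gene Sub1 (0.993) and the small GTPase gene Hras (0.990). Sub1 was at 74.6, 57.3 and 68.0 TPM in WT and at 70.9, 59.6 and 57.8 TPM in MecomWT:R751W. Like Smad7 it was high in WT replicates 1 and 3 and in MecomWT:R751W replicate 1. Between Smad7 and Skil r was 0.816, which put Smad7 at rank 509 among the genes compared with Skil. All of these are descriptions over the same 6 libraries, which differed in depth and in protein-coding share (25.9% to 30.1% of TPM). The part of these differences in the correlations was not tested.

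**Figure D3:**
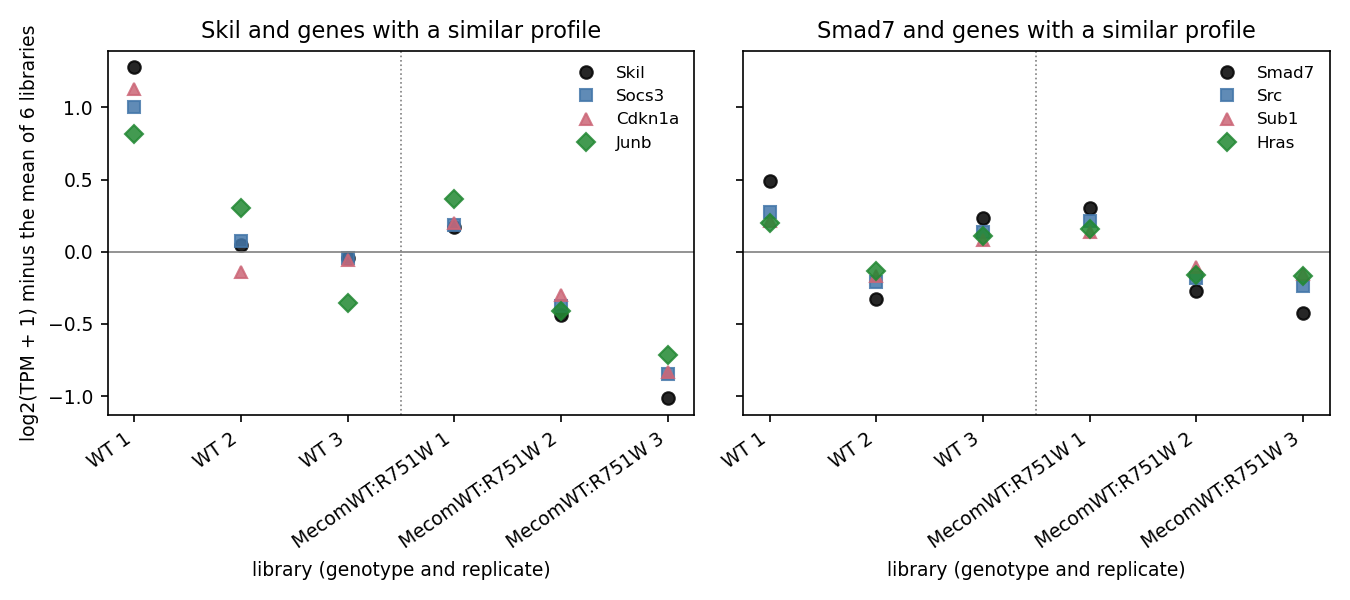
Log2(TPM + 1) minus the mean of the 6 libraries (vertical axis) for Skil with Socs3, Cdkn1a and Junb, and for Smad7 with Src, Sub1 and Hras, in each library (horizontal axis, genotype and replicate). WT replicate 1 is highest for Skil, at 52.3 TPM, and MecomWT:R751W replicate 3 lowest, at 9.89 TPM.

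Among the target genes of TGF-beta listed for the pathway, 14 of 18 were read and 12 were tested. Of these 12, 11 were below 0, where 51.0% of all genes tested were, with a median of -0.17, and 0 passed limma's adjusted threshold. At an unadjusted p under 0.05 limma gave 2 lower, Gadd45b and Cdkn1c, where 3.23% of all genes tested were lower by that measure. Gadd45b, a stress response gene, was at 5.79, 3.56 and 5.61 TPM in WT and at 3.61, 0.793 and 2.44 TPM in MecomWT:R751W, a log2 fold change of -0.95 (SE 0.30). It overlapped by a narrow margin, and over protein-coding rows alone it was called (adjusted p = 0.00306, limma), though not without MecomWT:R751W replicate 2 (log2 fold change -0.56, adjusted p = 0.376). The call was not made after rescaling (adjusted p = 0.242), with limma-voom on the implied reads (0.248) or over all rows (0.583).

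Cdkn1c, the gene of the cell cycle inhibitor p57 that TGF-beta induces in stem cells, was at 9.12, 10.2 and 13.9 TPM in WT and at 9, 7.14 and 7.73 TPM in MecomWT:R751W. It was the 1 gene of the 12 whose groups did not overlap, although WT replicate 1 and MecomWT:R751W replicate 1 nearly touched. Of all genes tested, 4.7% lay wholly below WT. Cdkn1a was at 4.14 ± 2.74 TPM in WT against 2.20 ± 1.12 TPM in MecomWT:R751W, a log2 fold change of -0.62 (SE 0.33), and Junb had a log2 fold change of -0.51 (SE 0.29). The size of both differences depended on single libraries. Leaving out WT replicate 1, where Cdkn1a was at 7.30 TPM, gave -0.21 for Cdkn1a and -0.23 for Junb, and leaving out MecomWT:R751W replicate 3 gave -0.36 and -0.28. Junb was at -0.82 when MecomWT:R751W replicate 1 was left out and at -0.81 for WT replicate 3. After rescaling over protein-coding rows, 4 of 13 target genes lay wholly below WT, namely Pmepa1, Klf10, Cdkn1c and Gadd45b, and 1 wholly above, Ldlrad4, against 8.63% and 7.53% of all genes tested on that scale. Pmepa1 and Klf10 were named after their values were seen.

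Pmepa1 encodes a membrane protein that sequesters receptor-activated SMADs. It was at 1.18, 0.828 and 1.27 TPM in WT and at 0.429, 0.492 and 0.417 TPM in MecomWT:R751W, with 180 implied reads in all. Its mean fell short of the filter on low values, and with no filter its log2 fold change was -0.53 (adjusted p = 0.468, limma). Klf10, an early TGF-beta response gene, was at 38.8 ± 2.80 and 33.1 ± 2.70 TPM.

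Of the receptors other than the members, 5 of 7 tested genes were below 0, where 51.0% of all genes tested were. The median of the 7 was -0.09. On TPM as deposited, the 1 whose groups did not overlap was Acvr1b. This gene encodes the type I activin receptor ALK4, which also acts through SMAD2 and SMAD3. It was at 14.2, 12.4 and 15.2 TPM in WT and at 17.1, 17 and 20.9 TPM in MecomWT:R751W. All 3 MecomWT:R751W values lay above WT, as did 4.5% of all genes tested. The log2 fold change of Acvr1b was 0.37 (SE 0.15, adjusted p = 0.770, limma). The co-receptors Eng, or endoglin (-0.18), and Tgfbr3, or betaglycan (-0.15), and the BMP receptor gene Bmpr2 (-0.17) had negative log2 fold changes. After rescaling over protein-coding rows, Tgfbr3 and Bmpr2 lay wholly below WT and Acvr1b wholly above. On that scale 8.63% of all genes tested lay wholly below and 7.53% wholly above.

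Ligands and genes of TGF-beta activation gave 6 of 9 tested genes below 0 and a median of -0.11. Thbs1, whose product thrombospondin can release TGF-beta from its latent form, was at 46.6, 15.5 and 3.29 TPM in WT and at 3.79, 3.05 and 4.17 TPM in MecomWT:R751W. WT replicates 1 and 2 stood far above the rest, while WT replicate 3 lay within the MecomWT:R751W values. The log2 fold change was -1.69 (SE 0.59), and over protein-coding rows alone the gene was called (adjusted p = 5.04e-06, limma), though not without WT replicate 2 (0.144) or MecomWT:R751W replicate 2 (0.141). Thbs1 did not pass after rescaling (adjusted p = 0.354), with limma-voom on the implied reads (0.438) or over all rows (0.651). Over all rows, leaving out WT replicate 1 gave -0.86, and leaving out WT replicate 3, the low WT library, gave -2.59 with an adjusted p of 0.012. Furin, the protease that cuts the TGF-beta precursor, was at 18 ± 2.31 TPM in WT against 14.7 ± 1.86 TPM in MecomWT:R751W. It lay wholly below WT, as did 4.7% of all genes tested, with a log2 fold change of -0.28 (SE 0.15). Gdf11 and the latency protein gene Ltbp4 had log2 fold changes of -0.24 and -0.18.

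Of the other TGF-beta isoforms, Tgfb3 was at 1.23 ± 0.462 TPM in WT against 1.52 ± 0.447 TPM in MecomWT:R751W and Tgfb2 at 0.259 and 0.272 TPM, so Tgfb1 was the main isoform read. The list of activin and BMP ligands also holds secreted proteins that are not ligands. Of its 15 genes 3 were tested and all 3 were below 0, where 51.0% of all genes tested were. Gdf3, a ligand of the same superfamily, was at 2.90, 2.34 and 2.44 TPM in WT and at 1.51, 1.31 and 1.59 TPM in MecomWT:R751W. It lay wholly below WT, as did 4.7% of all genes tested, with a log2 fold change of -0.52 (SE 0.19, adjusted p = 0.667, limma). Fstl1, a follistatin-like secreted protein, and Bmp1, a protease of matrix proteins, had log2 fold changes of -0.28 and -0.18.

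**Figure D4:**
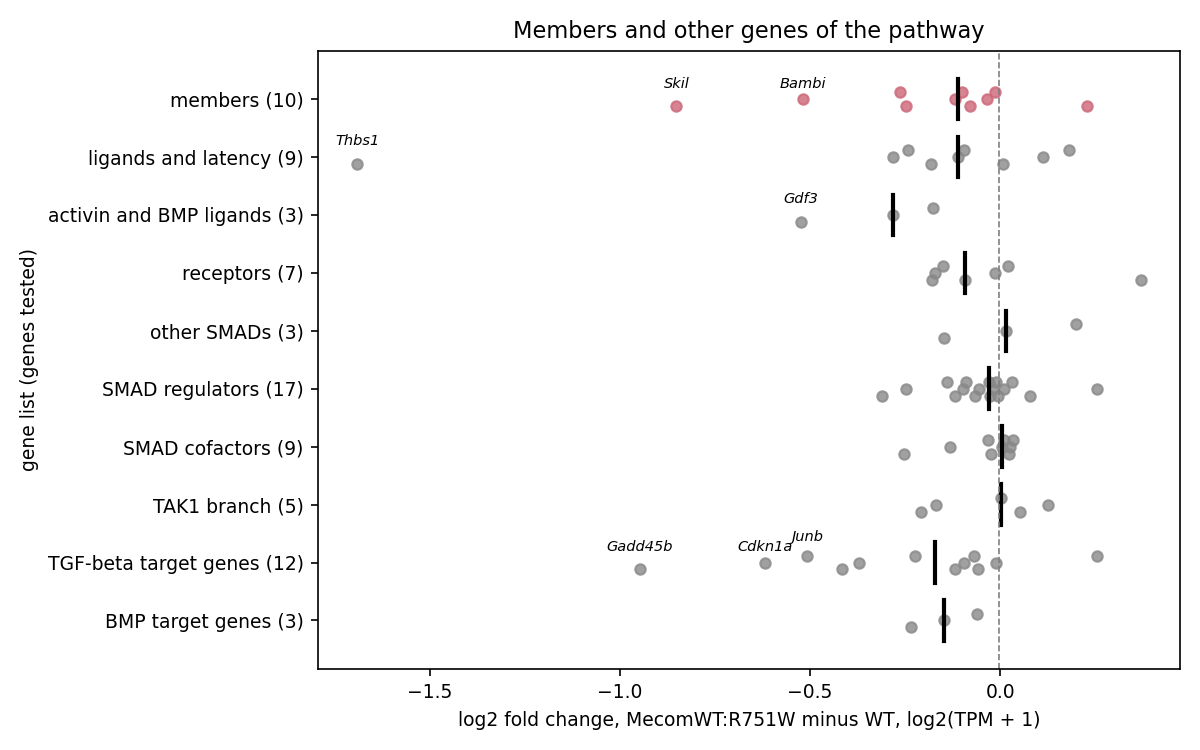
Log2 fold change (horizontal axis, MecomWT:R751W minus WT on the log2(TPM + 1) scale) of the tested genes in each list (vertical axis, number tested in brackets), with a bar at the median of the list and a dashed line at the median of all genes tested. The members and the TGF-beta target genes have medians of -0.11 and -0.17, and the cofactors and the TAK1 branch have medians of 0.00.

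The lists of intracellular partners had medians between -0.03 and 0.01. The other SMADs, Smad1, Smad5 and Smad6, had log2 fold changes of 0.20, 0.01 and -0.15, where SMAD1 and SMAD5 carry BMP signals and SMAD6 inhibits them. SMAD regulators, most of them ubiquitin ligases, deubiquitinases and adaptors, had 13 of 17 genes below 0 and a median of -0.03. Zfyve9 is the gene of the adaptor SARA, which brings SMAD2 and SMAD3 to the receptor. It was at 1.97 ± 0.199 TPM in WT against 1.40 ± 0.313 TPM in MecomWT:R751W. Zfyve9 lay wholly below WT, as did 4.7% of all genes tested. The repressor gene Tgif2, Strap and Ldlrad4 had log2 fold changes of -0.25, -0.14 and 0.25.

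The SMAD cofactors had 4 of 9 genes below 0 and a median of 0.00. Hdac1, a histone deacetylase recruited by SKI and SnoN complexes, was at 11.8 ± 0.524 TPM in WT against 9.78 ± 0.755 TPM in MecomWT:R751W, without overlap (log2 fold change -0.25, SE 0.15). Sin3a stood at 0.03 and Ep300 at -0.03. In the TAK1 branch, the SMAD-independent kinase arm, Tab3 stood at -0.21, Traf6 at -0.17, Tab1 at 0.13 and Tab2 at 0.05. The 3 tested BMP target genes were below 0, with Id1 at -0.23 and Id2 at -0.06. Over all pathway lists without the members, 44 of 63 tested genes were below 0 with a median of -0.07, where 51.0% of all genes tested were below 0. Of the 63, 1 lay wholly above WT and 5 wholly below, against 4.5% and 4.7% of all genes tested. By limma 0 passed the adjusted threshold, and 5 genes had an unadjusted p below 0.05, 1 of them higher and 4 lower. Of all genes tested, 2.74% were higher and 3.23% lower by that measure.

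Among markers of other cells, Cd48, Nkg7 and 2 of 5 tested erythroid markers, read at low levels, lay wholly above WT in MecomWT:R751W. So did 4.5% of all genes tested. Of the tested megakaryocyte and platelet, stromal and endothelial, and myeloid markers, 0 lay wholly above WT. By limma 0 markers of these lists passed the adjusted threshold. The summed level of 5 erythroid markers was 6.95 to 11.0 TPM in WT against 12.3 to 22.5 TPM in MecomWT:R751W, and Cd48, which the sort selects against, was at 1.02 to 2.18 and 2.27 to 4.10 TPM, without overlap (log2 fold change 0.65, SE 0.23). The erythroid genes Car1, a carbonic anhydrase (1.35, SE 0.37), and Klf1, an erythroid transcription factor (0.88, SE 0.24), also lay wholly above WT, each with an adjusted p of 0.431 by limma. Car1 was at 1.71, 8.93 and 2.69 TPM in the MecomWT:R751W libraries, so replicate 2 raised the erythroid sum most. The groups of the erythroid markers Hba-a1, Hbb-bs and Epor overlapped. Among lymphoid markers, 1 of 6 was read, Nkg7, a granule protein gene of cytotoxic lymphocytes, at 3.89 to 4.76 and 9.51 to 12.1 TPM. Its log2 fold change of 1.197 (SE 0.167) had an adjusted p of 0.0856 by limma, the smallest of all 16655 genes tested. Stromal and endothelial markers summed to 22.8 to 28.7 and 18.8 to 27.8 TPM, and myeloid markers to 68.6 to 87.6 and 60.7 to 79.0 TPM. The part of these cells in the levels of the members was not tested. In sorted bulk cells, fewer cells of a type and less RNA per cell cannot be told apart.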

How the data were processed

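SLAM-LSK cells of 3 WT and 3 MecomWT:R751W libraries were profiled by RNA sequencing. The authors deposited 1 table of TPM for 18465 genes, with a total of 1000000 in each column. The submitters' processing notes name the build mm10 and the tool DESeq2 without a role. Not given in the sources used here are the aligner, counter, strand setting, annotation and, among those in the labels' protocols, the kit used. Gene types and coordinates came from RefSeq GRCm38.p6, the assembly of mm10, which matched all 18465 symbols.

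limma (version 3.58.1, R 4.3.3) was run on log2(TPM + 1) for the 16655 genes whose mean reached 1 TPM. The model had a mean-variance trend and 1 term, the genotype. Benjamini-Hochberg adjustment of the two-sided p-values covered all genes tested, and the threshold was 0.05. The fit was tested on simulated data with the means and spread of 16655 genes and independent noise in each library. It recovered 70.5% of 200 genes changed by 1 on the log2 scale and 97.5% of 200 changed by 2. The changed genes were drawn only from genes of higher level, so recovery at low levels, such as that of Bambi, was not tested. The TPM ratios gave whole reads, within 0.001 reads, for 100% of genes, and a simulated table of 1471 genes gave 98.4% exactly. These reads give the depth and enter 1 alternative, limma-voom.

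The members and gene lists were chosen with earlier results of these data known, so lists have counts and medians and no test. Named genes were the members, up to 4 genes of smallest p per list, non-overlapping genes with a log2 fold change of at least 0.3 in size, the genes near Mecom, and 5 genes most like Skil and Smad7; a few of these named genes are not reported here. Python 3.11.15, numpy 2.4.6, pandas 2.3.3, scipy 1.17.1 and matplotlib 3.10.9 were used.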

Additional observations from a re-analysis of the deposited data

How the results depend on the processing

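Of 18 alternatives, 1 was chosen after seeing the data, as were the fits that left libraries out of the protein-coding rows. limma's counts of genes called, 0 higher and 0 lower, became 1 and 1 over genes of at least 5 TPM, 0 and 1 with library weights, 40 and 92 over protein-coding rows, 8 and 9 after rescaling, 24 and 26 with voom on implied reads, and 0 to 6 higher and 0 to 9 lower without 1 library (6 and 2 when WT replicate 3 was left out, 4 and 9 for MecomWT:R751W replicate 1, 1 and 1 for WT replicate 2). The cause was not tested. Skil alone of the members was called in any of the 18 (log2 fold change -0.85 over protein-coding rows). Tgfb1 stayed above 0, and Tgfbr2, Smad2, Smad7, Ski, Skil and Bambi below 0, in every alternative that tested them, while Bambi was not tested over genes of at least 5 TPM. Skil ranged from -1.15 to -0.43 without 1 library.

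Signs turned near 0. Smad3 stood at 0.017 with library weights and from -0.077 to 0.10 without 1 library, Smad4 from -0.072 to 0.017 and Tgfbr1 from -0.21 to 0.014. The median of all genes moved from -0.065 to 0.053 in those settings. Of 727 values of the other named genes, 709 kept their sign and 3 passed the threshold. The 18 that turned lay within these ranges without 1 library: Smad5 from -0.076 to 0.16, Sin3a from -0.039 to 0.10, Ep300 from -0.10 to 0.053, Tab2 from -0.019 to 0.13, Id2 from -0.18 to 0.057, Gpr160 from -0.33 to 0.022, Phc3 from -0.19 to 0.013, Rpl22l1 from -0.081 to 0.19 and Eif5a2 from -0.15 to 0.031 (0.038 with library weights). The median of the list of activin and BMP ligands was -0.28 over 3 genes. It was -0.39 with no filter on low values and -0.49 after rescaling, each over 4 genes because Nodal then entered. Without 1 library it ran from -0.41 to -0.25. The genes that pass the filter can differ between settings, so these medians need not cover the same genes. Other medians ranged without 1 library from -0.21 to -0.007 for ligands and latency, from -0.23 to -0.01 for receptors, from -0.25 to -0.13 for TGF-beta targets and from -0.33 to -0.036 for BMP targets, and those of the intracellular partners changed sign.

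The replicate number was not shown to pair the libraries. Deviations from the genotype means correlated at 0.140, 0.089 and 0.083 between libraries of the same number, and each library correlated best with its own number, a hint from the data only. With the replicate block limma called 0 genes and no member, and Skil stood at -0.85 (adjusted p = 0.278). With the replicate block over protein-coding rows it called 5 higher and 24 lower, and Skil (adjusted p = 0.0507), Gadd45b (0.094) and Thbs1 (0.275) missed the threshold. Bambi rests on 46 to 108 implied reads per library, which limits its precision.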

Other observations

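Skil lies on chromosome 3 (31095058 to 31122923 in GRCm38), 585 kb beyond the end of Mecom (29951296 to 30509759). Of 17 genes listed for this stretch and its flanks, 9 were read and tested. Their log2 fold changes ran from -0.26 to 0.23, with 6 below 0 and a median of -0.07, and 0 passed limma's adjusted threshold (0 also at an unadjusted p under 0.05). Mynn, a zinc finger gene beside Mecom, was at 16.6, 12.1 and 12.2 TPM in WT and at 12, 10.8 and 10.9 TPM in MecomWT:R751W. It lay wholly below WT by a narrow margin (log2 fold change -0.24), where 4.7% of all genes tested lay wholly below. Mecom lay in the other direction at 0.23, and Sec62 (-0.12), Phc3 (-0.07), Prkci (0.14), Gpr160 (-0.16), Tnik (-0.26), Rpl22l1 (0.03) and Eif5a2 (-0.04) lay nearer to 0 than Skil (-0.85). After rescaling over protein-coding rows, Mecom lay higher in all 3 MecomWT:R751W libraries (171, 154 and 152) than in any WT library (142, 135 and 128), as did 7.53% of genes, with an adjusted p of 0.285 by limma.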
